A study of Mus musculus with 13 samples.

Results

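The mitochondrial respiratory chain and ATP synthase genes of mouse embryonic stem (ES) cells were examined in RNA-seq of ES cells that lack the DNA methyltransferase DNMT1 and of ES cells that express a targeted O-GlcNAcase. The members are every gene of the replicate files whose symbol begins with Ndufa, Ndufb, Ndufc, Ndufs, Ndufv, Uqcr, Cox4i, Cox5, Cox6, Cox7, Cox8 or Atp5, together with Sdha, Sdhb, Sdhc, Sdhd and Cyc1, without the 5 names that carry the pseudogene suffix -ps. This gave 91 genes of the 26797 listed, and the same 91 identifiers were found among the 49671 genes of the joint count table. By what is known of the proteins, 80 of them encode subunits and 11 do not: the rule also picks up 9 assembly factors of complex I (8 Ndufaf genes and Atp5sl), the supercomplex factor Cox7a2l and Atp5s. Cox4i1, Ndufa13 and Cox6a2 are not in the replicate files and were not analysed there.

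The WT and Dnmt1_null libraries with replicate numbers were 3 each, and a joint table holds 1 further library of each genotype beside 1 library of dCas9-OGA and 1 of dCas9-OGA-D242A. The WT cells are the AinV15 line, whose ROSA26 locus carries the transactivator for doxycycline induction, and were untreated. The Dnmt1_null cells, given as D1-null strain (C allele), are homozygous for a null allele and were also untreated. They are another line than AinV15, so the loss of DNMT1 and the line cannot be told apart. The dCas9-OGA cells are AinV15 cells with an inducible fusion of nuclease-dead Cas9 to a bacterial O-GlcNAcase, which removes O-linked N-acetylglucosamine from proteins, and 4 sgRNAs against IAP retrotransposons. The dCas9-OGA-D242A cells carry the same sgRNAs and a fusion whose O-GlcNAcase is inactive. The methods describe induction with doxycycline and selection with G418 for dCas9-OGA, and a figure legend names both fusions as induced with doxycycline. The WT cells were untreated, so a difference from WT cannot be told apart from that handling or from the cassette. All RNA samples were grown on gelatin in serum with leukemia inhibitory factor. The sources do not say that replicates came from separate cultures, so their spread, and every p-value, may be technical.

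The respiratory chain passes electrons from NADH (complex I) and succinate (complex II) through ubiquinone to complex III, by cytochrome c to complex IV and so to oxygen, and complexes I, III and IV pump protons across the inner mitochondrial membrane. Complex V, the ATP synthase, uses the returning protons to make ATP. Most subunits are encoded in the nucleus and a few by mitochondrial DNA, and the nuclear promoters are known targets of the transcription factors NRF1, GABPA, YY1 and the estrogen-related receptors (ERR). ES cells lean on glycolysis but keep an active chain. Several complex IV subunits have a broadly expressed form and a form kept mostly to heart and muscle, lung or testis.

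The study concerns promoters silenced by methylation, so the bases before the start of such an isoform pair are shown. Cox7b2, the testis form of complex IV subunit VIIb, and its broad partner Cox7b are shown with the CG dinucleotides, the sites that DNMT1 maintains, in capitals. Each line gives the 250 bases before the RefSeq start on GRCm38.p6, 5′ to 3′ on the gene's strand, at chr5:71548206-71548455 (minus strand) and chrX:106015450-106015699 (plus strand).
Cox7b2: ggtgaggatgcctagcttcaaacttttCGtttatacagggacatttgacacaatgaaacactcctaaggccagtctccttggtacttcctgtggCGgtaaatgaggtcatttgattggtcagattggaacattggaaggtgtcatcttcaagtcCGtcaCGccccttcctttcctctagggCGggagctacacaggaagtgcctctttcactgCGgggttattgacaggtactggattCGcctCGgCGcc
Cox7b: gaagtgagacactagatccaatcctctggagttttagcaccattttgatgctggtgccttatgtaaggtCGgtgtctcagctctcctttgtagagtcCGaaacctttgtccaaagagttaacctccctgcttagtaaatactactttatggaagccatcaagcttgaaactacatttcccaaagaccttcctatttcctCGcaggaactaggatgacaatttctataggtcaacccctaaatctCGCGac
The upstream stretch of Cox7b2 held 9 CG dinucleotides and that of Cox7b 5. The other pairs with known promoters went the other way, counted from 250 bases before to 50 after the start. Cox6b2 held 10 and Cox6b1 17, Cox7a1 held 7 and Cox7a2 20, and Cox8b held 2 and Cox8a 19. No methylation was measured in the files used here.

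RefSeq promoters (250 bases before to 50 after the start) were matched for 76 of the 91 members and were given for 27025 genes in all. Their median held 20 CG dinucleotides, against 7 over all genes. Among the complex IV genes, 9 broad members held between 5 and 35 and 4 tissue-restricted ones between 2 and 10. The words searched, on both strands, were 8 or 9 bases long, and none contains another. The NRF1 core CGCATGCG stood in 10 of the 76 promoters (13.2%) and in 1.91% of all, and the YY1 word AAGATGGCG in 8 (10.5%) and in 1.49% of all. The GABPA/ETS word CCGGAAGT stood in 5 (6.58%) against 4.00%, and the ERR word CAAGGTCA in 4 (5.26%) against 1.53%. Uqcr11, a small subunit of complex III, held both the GABPA/ETS and the NRF1 word, here in capitals in 250 bases that end just after the start, at chr10:80406812-80407061 (minus strand).
Uqcr11: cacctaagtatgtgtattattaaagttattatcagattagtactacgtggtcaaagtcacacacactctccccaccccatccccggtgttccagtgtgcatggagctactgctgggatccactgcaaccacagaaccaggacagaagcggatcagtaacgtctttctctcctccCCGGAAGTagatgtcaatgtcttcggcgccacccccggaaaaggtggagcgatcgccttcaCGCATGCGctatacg
In Ndufs4 and Atp5j2, the subunits of their complexes that fell most in Dnmt1_null cells, the YY1 word lay just after the start. The 30 bases around it are given at chr13:114388045-114388074 and chr5:145191499-145191528 (both minus strand), with the word in capitals.
Ndufs4: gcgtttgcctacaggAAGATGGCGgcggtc
Atp5j2: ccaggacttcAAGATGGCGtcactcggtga
Ndufs4 and Atp5j2 were picked for their falls. Of the 8 members with the YY1 word 4 fell, 2 rose and 2 did not pass the test. A match describes letters and not binding.

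The values of the replicate libraries are given as signal, the reads on a gene divided by the authors' scaled library size. The reads behind them came to between 26846275 and 37112247 per library. Dnmt1 itself was at 336 ± 24.1 (SD, n = 3) in WT and 75.5 ± 2.02 in Dnmt1_null libraries, a log2 fold change of −2.14 (limma, adjusted p = 1.1e-20), and at 11408 and 1176 counts in the single libraries, the direction of the labels. Of 7 ES cell markers in the files 1 rose and 3 fell. Of 6 fibroblast markers 5 fell and 1 rose: their summed signal was 1046 to 1505 in WT and 273 to 301 in Dnmt1_null libraries, although the labels name gelatin and no feeder cells. Of 6 primitive endoderm markers 5 rose, from a sum of 119–121 to 176–185, and all 6 of the 2-cell-like markers fell, from 411–436 to 172–195. In bulk RNA fewer cells of a type and less RNA per cell cannot be told apart, and the part of these other cells in the members' changes was not tested.

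The first comparison asked how the respiratory chain genes of Dnmt1_null ES cells differed from WT. Fold changes are on the log2(signal + 0.5) scale and calls are at an adjusted p under 0.05 (limma, Benjamini-Hochberg over all 17297 genes tested). Of the 91 members 89 passed the filter on low values; Cox8b and Cox8c did not. Of these, 23 rose, 34 fell and 32 did not pass the test. Over all genes tested, 35.8% were higher and 35.4% lower in Dnmt1_null cells, so calls were common in this comparison. The members' shares were 25.8% higher and 38.2% lower, and their median log2 fold change was −0.06, against 0.01 for all genes.

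**Figure D1:**
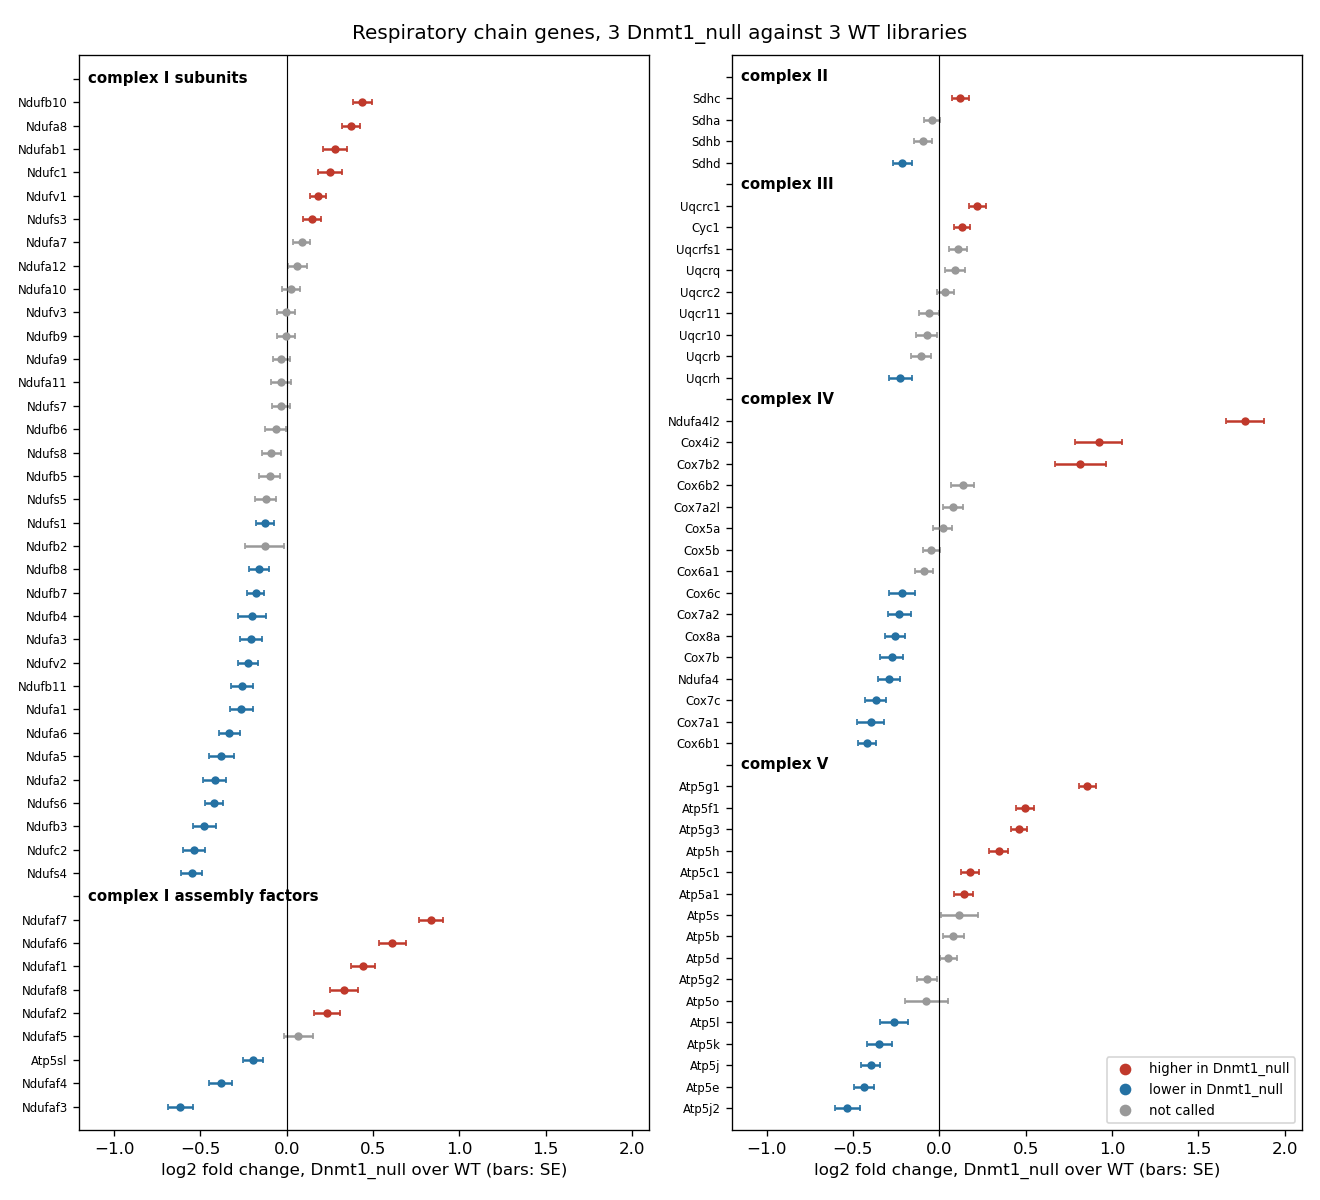
Log2 fold change (x axis, Dnmt1_null over WT) of 88 members tested, one row per gene under its complex, with the SE as bars; red rose, blue fell and grey did not pass the test. Ndufa4l2 stands alone at 1.77, and complex I and complex IV hold most of the blue points.

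Complex I, the NADH dehydrogenase, had 35 subunits among the members, of which 16 fell (45.7%) and 6 rose (17.1%), with a median of −0.12. Among the 7 core subunits, which carry the redox centres, 3 fell and 2 rose; among the 28 accessory subunits 13 fell and 4 rose. Ndufs4, an accessory subunit whose loss causes a Leigh-like disease in mice and humans (chr13:114287795-114388258, minus strand, GRCm38), measured 127, 123 and 127 in WT and 90.5, 92.3 and 76.0 in Dnmt1_null libraries. The groups did not overlap, and the log2 fold change was −0.55 ± 0.06 (SE; adjusted p = 1.5e-08, limma). Ndufc2, a membrane-arm subunit, measured 111, 113 and 115 in WT and 86.1, 79.4 and 69.0 in Dnmt1_null, again without overlap (−0.54 ± 0.06). Falls of at least 0.40 were also measured for Ndufb3 (−0.48), Ndufs6 (−0.42) and Ndufa2 (−0.42), all accessory.

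The 6 complex I subunits that rose came from different modules. Ndufb10, a membrane-arm subunit, measured 61.0, 69.3 and 64.9 in WT and 87.4, 87.3 and 90.1 in Dnmt1_null libraries (0.44 ± 0.05, adjusted p = 1e-07, limma). Ndufa8 rose from 74.2, 79.1 and 73.4 to 99.4, 93.6 and 101 (0.37 ± 0.05). Ndufab1, the mitochondrial acyl carrier protein, rose by 0.28, and Ndufv1, which binds NADH and FMN, by 0.18. The remaining rises were those of Ndufc1 (0.25) and the core subunit Ndufs3 (0.15). The call for Ndufs3 was lost without Dnmt1_null replicate 1 or 2 or WT replicate 1 (adjusted p = 0.091, 0.057 and 0.062, limma), and with a trend in GC content and exonic length removed (0.11, adjusted p = 0.079).

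The complex I assembly factors, which help build the enzyme and leave it, numbered 9 members, of which 5 rose and 3 fell, with a median of 0.23; they were not tested against the subunits. Ndufaf7, a methyltransferase that acts during assembly (chr17:78937136-78948052, plus strand), measured 13.5, 14.3 and 14.6 in WT and 26.1, 24.5 and 26.4 in Dnmt1_null libraries, a fold change of 1.79 (0.84 ± 0.07, adjusted p = 1.2e-10, limma). Ndufaf6 rose from 10.6, 10.6 and 11.1 to 17.4, 16.7 and 16.0 (0.61 ± 0.08). Ndufaf3 and Ndufaf4, which act together early in assembly, were the pair with the largest falls. Ndufaf3 went from 23.2, 22.3 and 21.4 to 14.7, 13.4 and 15.0 (−0.62 ± 0.07), and Ndufaf4 fell by 0.38. In each of these 4 genes every Dnmt1_null library lay outside the WT range. As they were named for their size of change past the test, this adds little, and the share of all genes was not computed.

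Complex II, succinate dehydrogenase, is the complex whose subunits are all nuclear, and of its 4 genes 1 rose, 1 fell and 2 did not pass the test. The catalytic flavoprotein gene Sdha measured 303, 309 and 313 in WT and 301, 291 and 307 in Dnmt1_null, with overlap (−0.04 ± 0.05, adjusted p = 0.44, limma). The iron-sulfur subunit gene Sdhb was at −0.09 (adjusted p = 0.11, limma), and at −0.15 and called with a trend in GC content and exonic length removed (adjusted p = 0.012). Of the membrane anchors, Sdhc rose by 0.12 (101, 102 and 104 against 112, 107 and 116; adjusted p = 0.03, limma) and Sdhd fell by 0.21 (161, 156 and 153 against 145, 134 and 127). The call for Sdhc was lost with DESeq2 (adjusted p = 0.055) and without either of 2 Dnmt1_null libraries, replicates 1 and 3, or WT replicate 1 (adjusted p = 0.078, 0.13 and 0.076), and with the GC content and length trend removed (0.07, adjusted p = 0.17).

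In complex III, the cytochrome bc1 complex, 2 of 9 subunits rose, 1 fell and 6 did not pass the test. Uqcrc1, a core subunit, rose from 324, 335 and 334 to 394, 373 and 391 (0.22 ± 0.05, adjusted p = 0.00028, limma). Cyc1, which encodes cytochrome c1, rose from 274, 276 and 282 to 313, 300.5 and 300.1 (0.13 ± 0.05); without Dnmt1_null replicate 1 its adjusted p was 0.081 (limma), and with the GC content and length trend removed it was at 0.09 (adjusted p = 0.080). The hinge protein gene Uqcrh fell from 155, 148 and 151 to 141, 139 and 110, and the third Dnmt1_null library carried that fall: without it the change was −0.11 and not called (adjusted p = 0.069, limma).

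In complex IV, cytochrome c oxidase, 7 of the 10 broadly expressed members fell, none rose, and 3 (Cox5a, Cox5b and Cox6a1) did not pass the test, with a median of −0.24. The 7 that fell were those with the shortest coding sequences, of 189 (Cox7c) to 258 bases (Cox6b1), against 336 (Cox6a1), 387 (Cox5b) and 438 (Cox5a) in the other 3. Over all protein-coding genes tested with up to 300 coding bases, 46.0% were lower and the median was −0.17, and the part of length in these falls was not tested. Cox6b1, which bridges the monomers of the dimeric enzyme (chr7:30616861-30626151, minus strand), measured 151, 147 and 137 in WT and 111, 112 and 102 in Dnmt1_null libraries (−0.42 ± 0.05, adjusted p = 1.7e-07, limma). The others that fell were Cox7c (−0.37), Ndufa4 (−0.29), Cox7b (−0.28), Cox8a (−0.26), Cox7a2 (−0.23) and Cox6c (−0.22). In each of these 7 genes all Dnmt1_null libraries lay below all WT libraries. As the 7 had passed the test as falls, this adds little, and the share of all genes without overlap was not computed. The third Dnmt1_null library was the lowest in each, at 133 for Cox7b against 172 and 168 in the others, and without it Cox7a2 was at −0.12 and not called (adjusted p = 0.05, limma). Cox6c was then at −0.08 (adjusted p = 0.18, limma), and it was not called with DESeq2 (adjusted p = 0.14) or with no filter on low values (adjusted p = 0.056) either. Cox7b and Ndufa4 shrank to −0.16 and −0.19 without that library and stayed past the test (adjusted p = 0.013 and 0.003, limma).

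Of the 7 tissue-restricted complex IV members, 3 rose, 1 fell, 1 did not pass the test and 2 were too low to test. Ndufa4l2, a paralogue of Ndufa4 known to be induced by hypoxia (chr10:127514967-127517154, plus strand), measured 1.93, 2.44 and 2.33 in WT and 9.51, 8.38 and 8.55 in Dnmt1_null libraries. The groups were far apart, with a fold change of 3.41 (1.77 ± 0.11, adjusted p = 8.1e-13, limma), the largest rise among the members. Cox4i2, the lung form of subunit IV (chr2:152754173-152765037, plus strand), rose from 0.884, 0.961 and 0.790 to 2.44, 1.97 and 1.95 (0.92 ± 0.14, adjusted p = 1.9e-06, limma), a change that the added 0.5 lowers for so low a gene and that was 1.24 with edgeR on the recovered reads. Cox7b2, whose upstream bases are given with the promoters, rose from 1.80, 1.40 and 2.26 to 3.83, 4.11 and 2.80 (0.82 ± 0.15, adjusted p = 3e-05, limma). Neither pair of groups overlapped. With 5 added in place of 0.5 the changes of Ndufa4l2, Cox4i2 and Cox7b2 were 0.93, 0.28 and 0.33, all past the test.

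The heart and muscle form Cox7a1 went the other way, from 16.2, 16.7 and 15.2 to 12.2, 12.7 and 11.3 (−0.40 ± 0.08, adjusted p = 8.5e-05, limma). The testis form Cox6b2 measured 27.9, 30.2 and 29.7 in WT and 30.7, 35.5 and 30.6 in Dnmt1_null (0.14, adjusted p = 0.07, limma), without overlap. It passed the test without WT replicate 2 or Dnmt1_null replicate 1 or 3, and with the chromosome medians set to that of all genes (adjusted p = 0.044, limma). Dnmt1_null replicate 2 was the highest library for Cox6b2, at 35.5 against 30.7 and 30.6 in replicates 1 and 3. Cox8c, the testis form of subunit VIII, was at 0.131, 0.104 and 0.144 in WT and 0.313, 0.263 and 0.184 in Dnmt1_null libraries. Cox8b, the muscle form, was at or under 0.0982 in all 6 libraries.

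Per kilobase of exon, the tissue-restricted forms stayed well under their broad partners in both genotypes. Ndufa4l2 was at 2.04 signal per kb in WT and 8.05 in Dnmt1_null, against 168 and 138 for Ndufa4. Cox7b2 was at 3.36 and 6.60 signal per kb, against 156 and 130 for Cox7b. Cox7a1, at 29.99 and 22.6 signal per kb, and Cox6b2, at 26.4 and 29.1, were the forms nearest to their partners Cox7a2 (157 and 134) and Cox6b1 (205 and 153). Cox4i2 was at 1.11 and 2.69, with no partner level because Cox4i1 is not in these files.

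**Figure D2:**
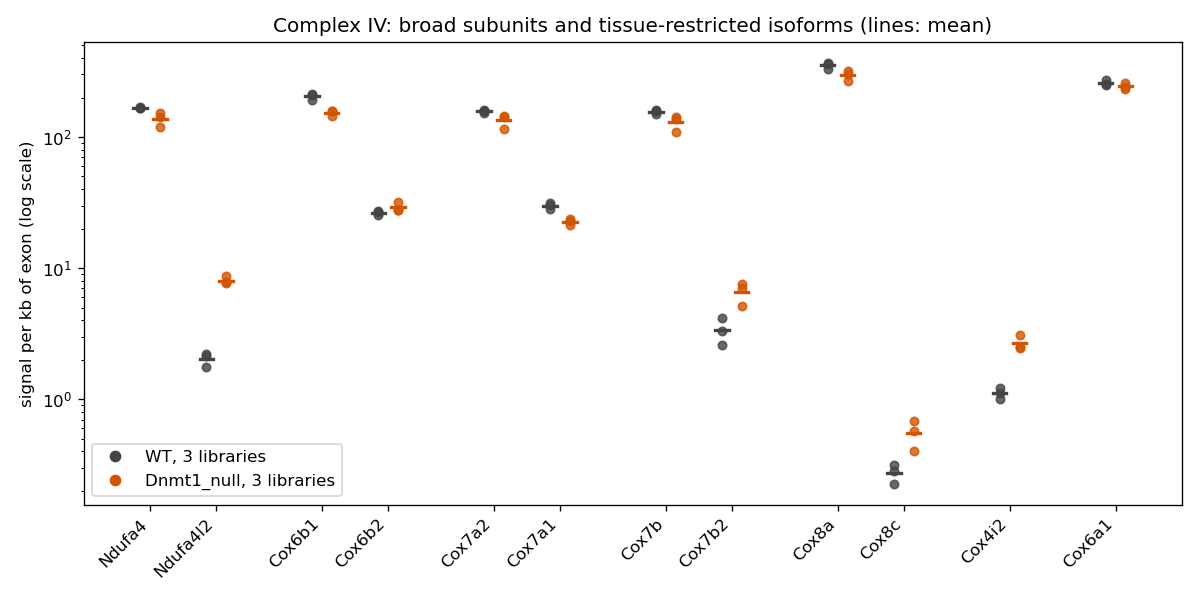
Signal per kb of exon (y axis, log scale) of the complex IV isoforms beside their broad partners, one point per library with the mean as a line, WT in grey and Dnmt1_null in orange. Ndufa4l2, Cox7b2 and Cox4i2 shift up and their partners, where shown, shift down, yet each restricted form stays under its partner.

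Markers of the tissues that use these forms were looked at beside them. The muscle markers summed to between 12.25 and 12.8 in WT and between 13.65 and 14.3 in Dnmt1_null libraries, and of 4 tested Myh6 rose (5.50 to 8.57 on average), Tnnt2 fell (1.67 to 0.519) and Myh7 and Tnni3 did not pass the test. Of the male germ cell markers, the averages of Prm1, Prm2, Tnp2 and Pgk2 lay between 0.0109 and 0.0338 in both groups, and Ldhc, a testis lactate dehydrogenase and the one tested, rose, from 0.831 to 6.91 (log2 fold change 2.48). Cyct, the testis form of cytochrome c, rose from 6.53 ± 0.53 to 12.3 ± 1.43 (0.87, adjusted p = 2.4e-08, limma), and the somatic form Cycs from 70.5 ± 6.22 to 82.4 ± 7.13 (0.22, adjusted p = 0.0034, limma).

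In complex V, the ATP synthase, the rises and falls balanced: of 16 members 6 rose, 5 fell and 5 did not pass the test, with a median of 0.07. Atp5g1, one of 3 genes that encode the same mature subunit c of the rotor ring (chr11:96068852-96075670, minus strand), measured 69.9, 67.7 and 66.2 in WT and 127, 121 and 123 in Dnmt1_null libraries, a fold change of 1.81 (0.86 ± 0.05, adjusted p = 1.2e-13, limma). It has 1 near-identical copy elsewhere in the genome, so reads may be shared. In complex V, Atp5f1, Atp5g2, Atp5h, Atp5k, Atp5l and Atp5o also have a copy. Atp5g3 rose from 277, 278 and 277 to 397, 370 and 379 (0.46 ± 0.05), while Atp5g2 was at −0.07 and did not pass the test. Atp5f1, the stator subunit b, rose from 267, 241 and 253 to 378, 348 and 347 (0.50 ± 0.05). Subunit d of the same stalk, Atp5h, rose by 0.34, the γ subunit Atp5c1 by 0.18 and the catalytic-head subunit Atp5a1 by 0.14. With each chromosome's median set to that of all genes Atp5h was at 0.00 and not called. The call for Atp5a1 was lost without any 1 of 4 libraries, Dnmt1_null replicates 1 and 3 and WT replicates 1 and 2 (adjusted p = 0.11, 0.0501, 0.069 and 0.059, limma). It was also lost with the GC content and length trend removed, at 0.08 (adjusted p = 0.19), and with no filter on low values (adjusted p = 0.077).

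The falls in complex V were those of small subunits. Atp5j2, subunit f of the membrane part, went from 297, 314 and 300 to 232, 226 and 176 (−0.53 ± 0.07, adjusted p = 3.7e-07, limma). Atp5e, the ε subunit of the central stalk, went from 88.1, 85.6 and 76.5 to 65.4, 61.8 and 57.3 (−0.44 ± 0.06). Atp5j, coupling factor F6, fell by 0.40, Atp5k (subunit e) by 0.35 and Atp5l (subunit g) by 0.26; without Dnmt1_null replicate 3 Atp5l was at −0.16 and not called (adjusted p = 0.071, limma). Atp5b, the β subunit and the most abundant member at 502 signal per kb in WT, was at 0.08 and did not pass the test.

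A short coding sequence went with a fall, among the members and among all protein-coding genes. Of the 22 members tested with up to 300 coding bases, 15 fell and 4 rose, with a median of −0.24; over all 274 protein-coding genes of that class the median was −0.17, with 46.0% lower and 23.4% higher. Between 300 and 500 bases the medians were −0.10 for 28 members and −0.10 for 935 genes. From 500 to 1000 bases they were 0.08 for 26 members, of which 11 rose and 6 fell, and 0.03 for 3325 genes. Above 1000 bases they were 0.03 for 13 members and 0.05 for 10233 genes. The third Dnmt1_null library stood lowest: the median of the shortest members relative to the WT mean was −0.455 there and −0.13 and −0.18 in the other 2. The part of coding length, or of what goes with it in a library, was not tested for single genes; without that library 23 members rose and 26 fell. With a trend in GC content and exonic length removed, 19 rose and 36 fell.

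**Figure D3:**
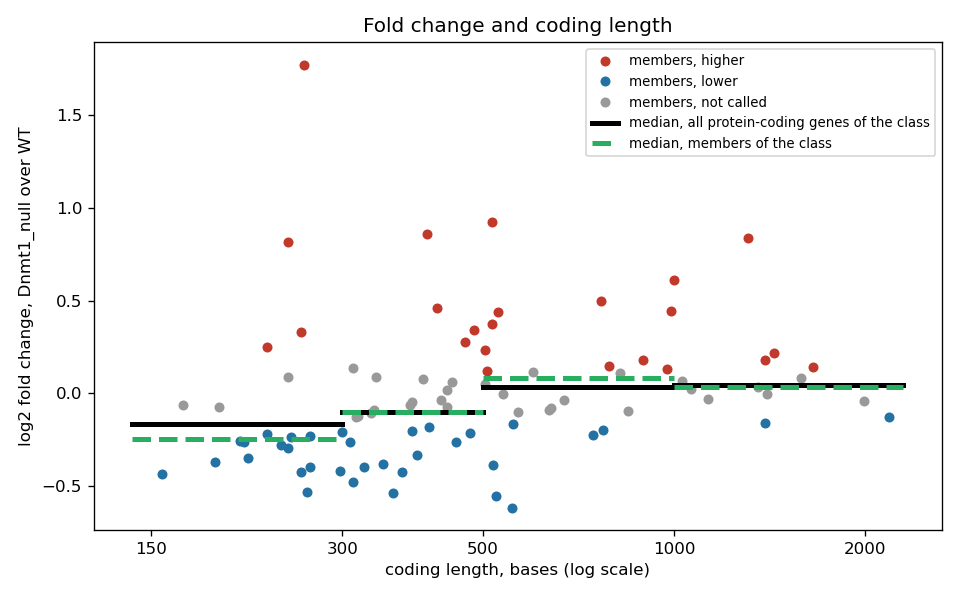
Log2 fold change (y axis, Dnmt1_null over WT) of each member against its coding length in bases (x axis, log scale), with the medians of 4 length classes as black lines for all protein-coding genes and dashed green lines for members. Both medians lie below 0 up to 500 bases (−0.17 and −0.24 in the shortest class) and just above it beyond.

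Chromosome 11 was higher as a whole in Dnmt1_null cells, with a median of 0.35 over its genes against a range of −0.07 to 0.06 for the other chromosomes. The 5 members on it were Atp5g1 (0.86), Atp5h (0.34), Ndufaf8 (0.33), Uqcrq (0.09) and Uqcr10 (−0.07), with a median of 0.33. With each chromosome's median set to that of all genes, Atp5g1 was still higher by 0.52 (adjusted p = 2.1e-09, limma), Atp5h and Ndufaf8 were at 0.00 and −0.01 and not called, and Uqcr10 and Uqcrq were lower, by −0.41 and −0.25. Without Dnmt1_null replicate 3 Uqcrq was at 0.16 and passed the test (adjusted p = 0.017, limma), before any such correction. The copy number of the chromosome was not measured, and its part was not tested.

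In a list of 19 regulators and parts of the mitochondrial gene expression machinery, 17 were tested, of which 12 rose and 1 fell, with a median of 0.27, against 35.8% higher and 35.4% lower over all genes. Nrf1 rose from 70.9 ± 2.37 to 89.1 ± 2.24 (0.33), Tfam, which packages mitochondrial DNA, from 86.2 ± 5.34 to 106 ± 4.94 (0.30) and Yy1 from 136 ± 4.19 to 164 ± 3.10 (0.27), while Gabpa (0.05) and Esrra (0.01) did not pass the test. Of the 12 that rose, 11 were compared in the single Dnmt1_null and WT libraries, untested, and 8 had a negative ratio there, among them Nrf1 (−0.60), Yy1 (−0.63) and Tfam (−0.04). Ppargc1a, the coactivator known for mitochondrial biogenesis in muscle and brown fat, was too low to test, at 0.333 and 0.171. Members did not move one way with the promoter words: of the 10 with the NRF1 word 2 rose and 3 fell, and of the 8 with the YY1 word 2 rose and 4 fell. Of 34 assembly factors tested outside the rule 13 rose and 13 fell, and of 14 genes of the mobile carriers and ubiquinone synthesis 7 rose and 4 fell. The 13 mitochondrially encoded subunits are not in the replicate files and are listed at 0 in the joint table, so the mitochondrial part of complexes I, III, IV and V was not analysed here.

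Some members could not be counted cleanly. For 21 of them the genome holds another stretch with at least 95% identity over at least 50% of the coding sequence, and 3 share over 20% of their exonic bases with another gene: Ndufaf2 (65.7%), Atp5o (47.9%) and Ndufb6 (39.0%). Of the 21 with a copy, 5 rose in Dnmt1_null replicates (Atp5f1, Atp5g1, Atp5h, Ndufab1 and Ndufs3). Another 8 fell (Atp5k, Atp5l, Cox6c, Cox7b, Cox7c, Ndufb3, Ndufb4 and Ndufb11). In WT the single library and the mean of the replicates differed by over 2 on the log2 scale in 7 of the 21 members with a copy, among them Ndufs5, listed at 0 counts in the single WT library and at 33.2 to 35.9 signal in the replicates, and in 3 of the 68 tested members without one. Over all genes tested this share was 16.5%. Atp5o showed the opposite, with 3.92 to 4.49 signal in the WT replicates and 2866 counts in the single library, as did Ndufb2 with 4.16 to 4.78 signal and 571 counts. The methods name HISAT2 for gene counts and the processing notes TopHat2 for both libraries with a dCas9 fusion, so which aligner the WT and Dnmt1_null columns of the joint table come from is uncertain. The kit is given as unstranded in the labels and as stranded in the methods, so reads on an antisense partner cannot be set apart. Levels of these members are uncertain. Without the members that have a copy or such an overlap, 17 rose and 26 fell among 66 tested.

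The single libraries gave a second reading of the Dnmt1_null comparison, with 1 library each and therefore no test. Their gene counts came to 25097983 for WT and 18693531 for Dnmt1_null cells; ratios are log2(cpm + 0.5) differences among genes with at least 100 counts summed, intervals are exact (Clopper-Pearson, 95%) for the ratio of counts and cover counting error only, and a change means at least 1.5-fold. Of 86 members compared 9 were higher and 9 lower, against 20.4% and 16.9% of all genes compared, and the median was −0.13, against −0.05 for all. Of the 34 members that fell in the replicates 33 were compared, and 29 of them had a negative ratio. Of the 23 that rose, 12 had a positive ratio and 11 a negative one. Negative ratios were common here: 58 of the 86 members compared had one. With dCas9-OGA-D242A over the same WT library it was 55 of 86.

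Complex IV was again the lowest. All 10 broad members were below WT, 6 of them by at least 1.5-fold, with a median of −0.77. Cox6a1 was at 8036 counts in WT and 3314 in Dnmt1_null (−0.87, interval −0.93 to −0.81), and Cox6c at 4153 and 1712 (−0.87, −0.95 to −0.79). Cox6a1 had not passed the test in the replicates. As there, short genes were lower: the medians of all genes compared with up to 300 coding bases and between 300 and 500 were −0.26 and −0.15, and those of the 22 and 26 members −0.37 and −0.26. The primitive endoderm markers summed to 47.96 cpm in the single WT and 16.5 cpm in the single Dnmt1_null library, the other way than in the replicates, and the 2-cell-like markers to 28.1 and 1.22 cpm. The fibroblast markers summed to 52.5 and 31.6 cpm, where the WT replicates held 1046 to 1505 signal. Their part in these ratios was not tested.

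The tissue-restricted forms did not repeat as a group. Cox7b2 was at 14 counts in WT and 146 in Dnmt1_null, a log2 ratio of counts of 3.79 (3.00 to 4.69) that the added 0.5 lowers to 2.96. Ndufa4l2, which rose by 1.77 in the replicates, was at 1117 counts in WT and 402 in Dnmt1_null (−1.05, −1.24 to −0.90). Cox4i2 was at 114 and 69 counts (−0.28), an interval of −0.77 to 0.13. The WT level of Ndufa4l2 itself differed between the sources, at 44.8 cpm in the single library and 1.93 to 2.44 signal in the replicates. Ndufs4 was higher here (823 and 1129 counts, 0.85, 0.73 to 0.99) and had fallen in the replicates. Ndufaf4, which fell by 0.38 in the replicates, was likewise higher here, at 351 and 432 counts (0.69, 0.50 to 0.91). Of the subunit c genes that rose in the replicates, Atp5g1 was at 2314 and 1747 counts (0.00, −0.09 to 0.09) and Atp5g3 was lower, at 18217 and 10613 counts (−0.37, −0.41 to −0.34). Uqcrc2, a core subunit of complex III (chr7:120635176-120659524, plus strand), was at 1192 counts in WT and 2223 in Dnmt1_null (1.30, 1.20 to 1.41), against 0.03 in the replicates. In complex II, Sdha was at 4056 and 4586 counts (0.58, 0.52 to 0.64), Sdhb at 0.26, Sdhc at −0.01 and Sdhd at −0.31. Among the assembly factors Ndufaf7 (0.62) and Ndufaf6 (0.73) were higher in both sources.

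**Figure D4:**
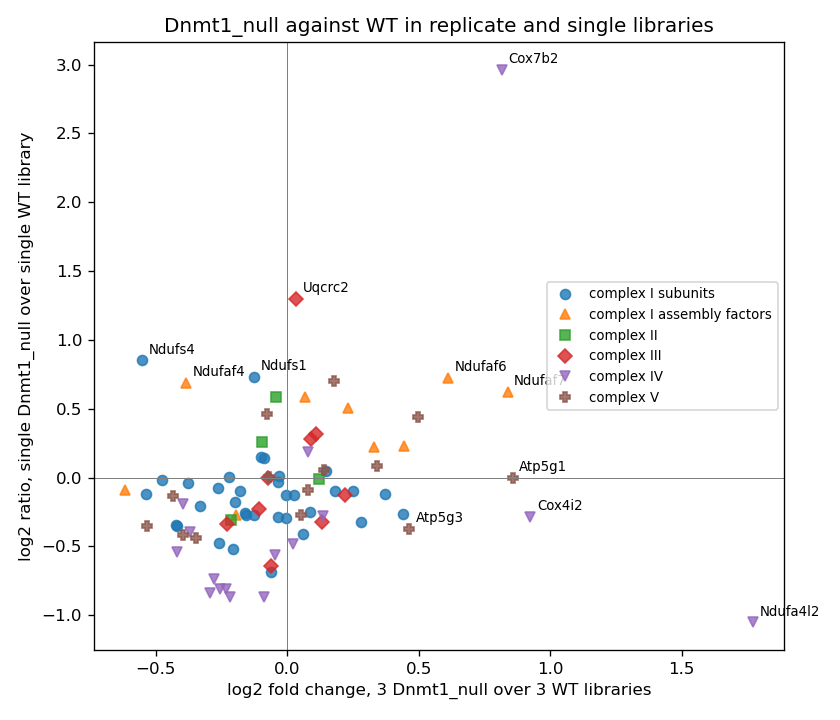
Log2 ratio of the single Dnmt1_null to the single WT library (y axis) against the log2 fold change of the 3 against 3 replicates (x axis), one marker per member compared in both, by complex. Most members that fell on the x axis lie below 0 on the y axis, while Ndufa4l2 is at 1.77 and −1.05 and Uqcrc2 at 0.03 and 1.30.

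The comparison of dCas9-OGA with dCas9-OGA-D242A cells asked what the active O-GlcNAcase changed, with 1 library each of 24955180 and 24828078 gene counts. Of 85 members compared 6 were at least 1.5-fold higher and 2 lower in dCas9-OGA cells, against 13.2% higher and 15.1% lower of 12722 genes, and the median was 0.11, against 0.03 for all genes. Most of these members lie on chromosomes that moved as a whole. On chromosome 1, with a median of 0.33 over all its genes, all 6 members were higher, 4 of them by 1.5-fold: Sdhc (3239 counts in dCas9-OGA-D242A and 5263 in dCas9-OGA; 0.70, 0.64 to 0.77), Ndufb3 (0.63), Ndufs1 (0.62) and Ndufa10 (0.60). On chromosome 11, with a median of −0.43, all 5 members were lower, led by Atp5g1 (1596 and 927 counts; −0.77, −0.90 to −0.66) and Uqcr10 (4670 and 3288 counts; −0.50, −0.57 to −0.44). Ndufb7, an accessory subunit of complex I (chr8:83566671-83571626, plus strand) and the only member on chromosome 8, was at 3775 and 1821 counts (−1.04, −1.13 to −0.97), where the median of the chromosome was −0.44.

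Outside those 3 chromosomes 2 of 73 members reached 1.5-fold, both complex IV isoforms. The shares over all genes, 13.2% higher and 15.1% lower, include those chromosomes and were not computed by chromosome. Cox6b2 (chr7:4751792-4753094, minus strand) was at 469 counts in dCas9-OGA-D242A and 1047 in dCas9-OGA cells (1.14, 1.00 to 1.32), and Ndufa4l2 at 501 and 851 (0.75, 0.61 to 0.93). With each chromosome's median set to that of all genes, 2 members were higher and 0 lower, and Ndufb7, at −0.57, lay just inside the 1.5-fold limit. The copy number of these chromosomes in the 2 populations was not measured and its part was not tested. The 10 broad complex IV members were higher in 9 cases, at a median of 0.29, and none reached 1.5-fold. Summed in cpm, the ES cell markers stood at 3926 with the inactive and 5736 with the active fusion, the primitive endoderm markers at 18.9 and 34.2 and the muscle markers at 18.9 and 7.44. The part of these markers' cells in the members' ratios was not tested.

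**Figure D5:**
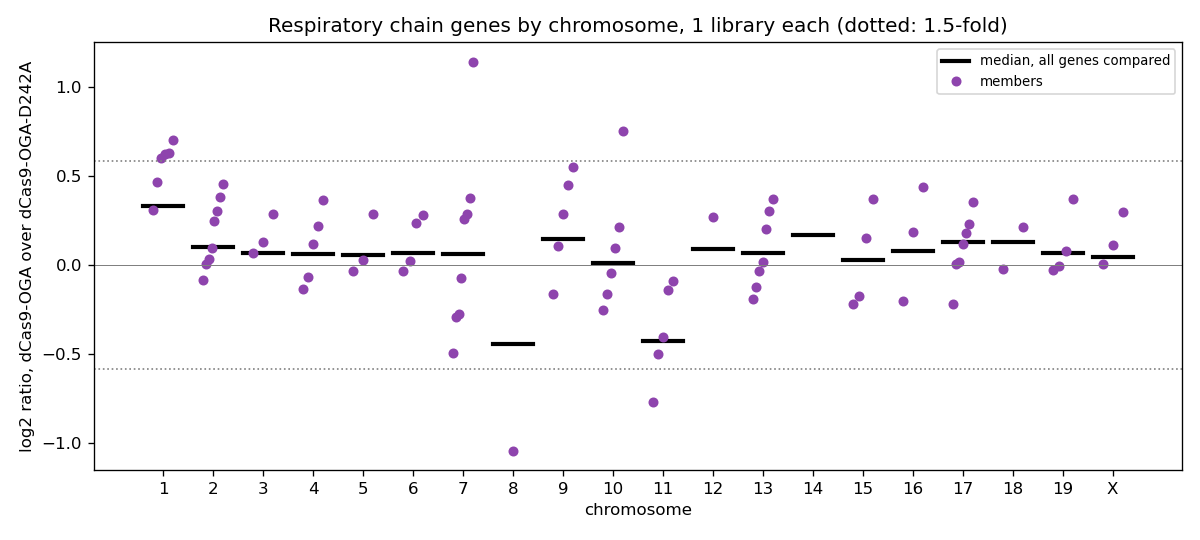
Log2 ratio of dCas9-OGA to dCas9-OGA-D242A (y axis) for each member compared, by chromosome (x axis), 1 library each; black lines give the median of all genes of the chromosome and dotted lines 1.5-fold. Members lie above 0 on chromosome 1 and below 0 on chromosomes 8 and 11, where the lines are at 0.33, −0.44 and −0.43; Ndufb7, at −1.04, lies well below its line, and Cox6b2 on chromosome 7 and Ndufa4l2 on chromosome 10 stand above theirs.

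The dCas9-OGA-D242A library was also set beside the single WT library, which the single Dnmt1_null comparison shares. Of 86 members 9 were at least 1.5-fold higher and 4 lower, against 23.8% and 19.6% of all genes, with a median of −0.18 against 0.01; with the trend in GC content and length removed the median was 0.0467. Ndufa4l2 (1117 counts in WT and 501; −1.14, −1.31 to −1.005) and Cox6b2 (948 and 469; −0.998, −1.18 to −0.86) were the lowest, followed by Ndufa3, an accessory subunit of complex I (1640 and 1000; −0.71, −0.83 to −0.60). The dCas9-OGA-D242A library also serves in the comparison with dCas9-OGA, where Cox6b2 was at 1047 counts and Ndufa4l2 at 851. For Cox6b2 the dCas9-OGA-D242A library was the lowest of the 4, at 18.8 cpm against 38.1 in WT, 31.2 in Dnmt1_null and 42.1 in dCas9-OGA. For Ndufb7, at 0.63 over WT, it was the highest. Atp5s was highest (31 and 125 counts, a log2 ratio of counts of 2.01, 1.43 to 2.63, that the added 0.5 lowers to 1.66), followed by Uqcrc2 (1192 and 3085 counts; 1.36, 1.27 to 1.47) and Ndufaf7 (240 and 620; 1.32, 1.15 to 1.59). For Uqcrc2, Ndufaf7, Ndufs4 and Ndufs1 the WT library was the lowest of the 4, and for Ndufa4l2 the highest, so the ratios to it in both comparisons rest on 1 WT library. All 10 broad complex IV members were below WT, at a median of −0.34. Short genes were lower in general: over all protein-coding genes compared the median was −0.29 with up to 300 coding bases and −0.19 between 300 and 500, and for the members of these classes −0.32 and −0.25. Between WT and dCas9-OGA-D242A the summed cpm of the 2-cell-like markers went from 28.1 to 1.32, of the primitive endoderm markers from 47.96 to 18.9, of the ES cell markers from 4895 to 3926 and of the fibroblast markers from 52.5 to 61.8, and their part was not tested.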

How the data were processed

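RNA-seq libraries of mouse ES cells were analysed; ChIP-seq of the series was not analysed here, and a table of repeats was not used. The submitters' processing notes name mm10, featureCounts 1.5.0 and HISAT2 2.1.0 (replicates) or TopHat2 2.0.11 (dCas9-OGA and dCas9-OGA-D242A); the methods name HISAT2 for gene counts in general, so the aligner of the WT and Dnmt1_null columns of the joint table is uncertain. For the 4 single libraries the authors deposited raw counts per gene. The deposited values of the 6 replicate libraries are a signal, which the authors made by dividing counts by a scaled library size; its steps gave whole reads for 100% of values (tolerance 0.01 read), and edgeR's quasi-likelihood test on those reads called 6026 genes higher and 6226 lower, among them 23 and 35 members.

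The rule for members uses names only, but the gene family and the gene lists were chosen with earlier results of these data known. limma 3.58.1 (trend) was fitted to log2(signal + 0.5) over 17297 genes that passed edgeR 4.0.16 filterByExpr on the recovered reads, with Benjamini-Hochberg adjustment at 0.05. DESeq2 1.42.0 was an alternative. Single libraries were scaled with TMM factors and compared without a test among genes with at least 100 counts summed. Positions, lengths and copies came from GENCODE M21 on GRCm38 (BLAST+ 2.17.0), promoters from RefSeq on GRCm38.p6; the table holds promoters of 76 members. Scripts ran in Python 3.11.15 (SciPy 1.17.1 for intervals, matplotlib 3.10.9 for figures) and R 4.3.3 and were tested on simulated data.

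Named genes were the tissue-restricted isoforms with their partners, Sdha to Sdhd and Cyc1, the 2 largest rises and 2 largest falls past the test in each group of genes, the 3 largest rises and falls of each single-library comparison, the members on chromosome 11, and the regulators and carriers listed; other members named were chosen after their values were seen. The values of 1 member are not reported here by name. Alternatives are given in the closing section.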

Additional observations from a re-analysis of the deposited data

How the results depend on the processing

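The counts of members that rose and fell in the replicates stayed within 1.5 times of 23 and 34 under every alternative run: edgeR's quasi-likelihood test, DESeq2, TMM scaling, a median gene of 0, pseudocounts of 0.1 and 5, no filter, GC content and length, and without assembly factors, chromosome 11 or members with a copy. Leaving out 1 library in turn gave 20 to 23 rises, 26 to 35 falls and medians of −0.11 to −0.02. A replicate block gave 25 rises and 34 falls and called Cox6b2 (adjusted p = 0.04, limma); the deviations of same-numbered libraries correlated at 0.074, −0.016 and 0.065, so the numbers are not shown to pair them. With chromosome medians set to that of all genes, an alternative added after seeing the data, Ndufaf8 (−0.0112) and Uqcrq (−0.25) changed sign. For dCas9-OGA against dCas9-OGA-D242A, a 2-fold limit left 1 member higher and 1 lower, chromosome medians set to that of all genes 2 and 0 (Ndufb7 at −0.57, just inside the limit), and leaving out members with a copy or overlap (also added later) 1 lower. For dCas9-OGA-D242A against WT, the 2-fold limit gave 5 and 1, and removal of the GC content and length trend 7 lower and a median of 0.0467. For the single Dnmt1_null and WT libraries, a pseudocount of 5 gave 5 higher, the 2-fold limit 2 and 1, a median gene of 0 a median of −0.0783, the GC content and length trend −0.0162, and leaving out members with a copy or overlap 5 lower. The cause of each shift was not tested. One library per condition limits every single-library value to counting error.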

Other observations

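The 3 chain genes absent from the replicate files were counted in the single libraries. Cox4i1, the broad form of subunit IV, was at 16149 counts in WT, 8582 in Dnmt1_null, 20166 in dCas9-OGA-D242A and 13903 in dCas9-OGA. Ndufa13, an accessory subunit of complex I, was at 2719, 1421, 3167 and 2366 counts in the same order. Cox6a2, the heart and muscle form of subunit VIa, was at 1, 0, 3 and 1 counts.

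The members' share of all signal was 1.25% to 1.26% in the WT and 1.13% to 1.22% in the Dnmt1_null replicates. In the single libraries it was 1.47% in WT and dCas9-OGA-D242A, 1.38% in Dnmt1_null and 1.475% in dCas9-OGA. Among genes outside the rule, Tmem126b, a complex I assembly factor, fell from 40.2 ± 1.03 to 19.1 ± 1.13 (SD, n = 3; log2 fold change −1.06, adjusted p = 3e-13, limma), chosen after its value was seen, and was at 104 counts in the single WT and 171 in the single Dnmt1_null library. Twnk, the mitochondrial DNA helicase, rose from 41.5 ± 1.46 to 74.6 ± 1.26 (0.84, adjusted p = 6.6e-13, limma), and was at 1781 counts in the single WT and 1182 in the single Dnmt1_null library (−0.18).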
